A study of Caenorhabditis elegans with 2 samples.

Results

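The cuticle collagen genes examined here were 180 of the 19973 protein-coding genes of Caenorhabditis elegans, picked by gene name. They comprised 156 genes named col-, 11 named dpy- (dumpy), 6 named bli- (blister), 4 named rol- (roller) and 3 named sqt- (squat), in the Ensembl release 115 annotation of WBcel235, the assembly that the deposited lists call ce11. The RefSeq product name was a collagen for 176 of the 180. The remaining 4 were bli-3, a dual oxidase that cross-links the cuticle, bli-4, a proprotein convertase, bli-5, a Kunitz-type protease inhibitor, and rol-3, a receptor tyrosine kinase. The rule reads gene names and no measured value. For each gene the highest peak with its summit within 1 kb of one of the gene's transcript starts was taken from the joint ranked list.

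The worm cuticle is an exoskeleton built mostly of collagens, which the hypodermis (the worm's skin) secretes anew before each moult. Cuticle collagens have a short N-terminal part followed by long stretches of residue triplets that start with glycine and often go on with proline, which lets the chains wind into a triple helix. The genes are short, are spread over all chromosomes, often lie beside their own close copies, and are switched on in waves within each moulting cycle. Mutations in single members give short, rolling or blistered worms, from which many of them take their names.

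NHR-120, a nuclear hormone receptor (a zinc-finger transcription factor of a family that is large in nematodes), was mapped by chromatin immunoprecipitation with sequencing in whole worms. There was 1 group with 2 biological replicates and no contrast between conditions. Strain OP415 carries wgIs415, a transgene made from a fosmid with nhr-120 tagged with TY1, EGFP and 3xFLAG, and unc-119(+), which rescues the unc-119(tm4063) mutation present in all the worms. The cultures were synchronised by bleaching and L1 starvation and collected as young adults at 64 hours, and chromatin with the tagged receptor was pulled down by its GFP part. The tagged receptor is made from added transgene copies, and whole worms mix the hypodermis with all other tissues, so the tissue in which a site was occupied is not known. Control immunoprecipitations were not analysed here.

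Sequences under 4 of the peaks that passed the authors' threshold are given as examples, and these are not the 4 strongest. The lines below give the coding strand of 4 peaks that lie in the genes' own coding exons, with in-frame pairs of a glycine and a proline codon (GGNCCN) in capitals. They are the peaks of col-39 at chrII:10705265-10705528, col-103 at chrIV:762581-762844 (gene on the reverse strand), col-122 at chrIV:9563563-9563826, and the coding bases of the col-19 peak at chrX:421912-422173, all on ce11 and read from the RefSeq genome.
col-39: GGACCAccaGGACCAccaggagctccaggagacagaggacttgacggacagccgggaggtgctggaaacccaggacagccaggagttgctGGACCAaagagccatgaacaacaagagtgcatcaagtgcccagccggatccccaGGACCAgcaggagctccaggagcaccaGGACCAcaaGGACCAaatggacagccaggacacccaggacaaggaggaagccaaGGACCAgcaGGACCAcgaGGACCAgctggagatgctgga
col-103: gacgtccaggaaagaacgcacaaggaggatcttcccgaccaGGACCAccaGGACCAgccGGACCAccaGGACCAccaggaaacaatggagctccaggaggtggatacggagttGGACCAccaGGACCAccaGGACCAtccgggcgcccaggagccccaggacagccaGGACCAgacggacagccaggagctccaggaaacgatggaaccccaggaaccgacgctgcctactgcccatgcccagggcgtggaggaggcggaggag
col-122: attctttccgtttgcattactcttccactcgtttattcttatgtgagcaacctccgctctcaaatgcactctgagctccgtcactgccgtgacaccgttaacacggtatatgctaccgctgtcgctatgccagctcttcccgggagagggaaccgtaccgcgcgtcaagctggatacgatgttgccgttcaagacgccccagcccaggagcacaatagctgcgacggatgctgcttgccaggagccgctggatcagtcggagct
col-19: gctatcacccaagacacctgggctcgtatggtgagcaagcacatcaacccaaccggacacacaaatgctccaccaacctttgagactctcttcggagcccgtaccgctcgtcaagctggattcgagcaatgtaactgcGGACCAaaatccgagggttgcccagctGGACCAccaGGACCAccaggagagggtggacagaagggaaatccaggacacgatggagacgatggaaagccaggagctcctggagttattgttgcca
The col-39 peak holds 9 such codon pairs and 86.4% of it lies in runs of at least 5 consecutive glycine-led triplets of codons. The col-103 peak holds 8 pairs and 71.2% of it lies in such runs. The col-19 segment holds 3 pairs and has 34.4% of its bases in runs, and the col-122 peak, most of which lies before the runs, holds 0 pairs and has 9.09% in runs.

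Few collagen genes had a peak that passed the authors' threshold, and most of those peaks lay inside the gene and not in its promoter. A ranked summit lay within 1 kb of a start in 173 of the 180 genes. A summit of the thresholded list, in which every peak had an irreproducible discovery rate (IDR, which gauges whether a peak keeps its rank between lists) of at most 0.01, lay there in 8 of the 173 (4.62%), against 1.93% of 17792 protein-coding genes with a ranked summit. The 8 were col-39, col-122, col-185, col-103, col-167, col-85, col-93 and col-19. The deposited −log10 q of their highest peaks, larger for a smaller q, ran only from 0.455 at col-19 to 0.912 at col-122. These peaks thus passed by IDR, while their q values were not small. In the authors' conservative list the count was 6 (3.47%, against 1.74%), made up of col-39, col-122, col-185, col-167, col-85 and dpy-3. In the list thresholded from replicate 1 alone it was 1 (0.578%, against 0.253%), col-103, and in that from replicate 2 alone it was 0 (against 0.264%). No test was made over the genes, which are not replicates of a condition.

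**Figure D1:**
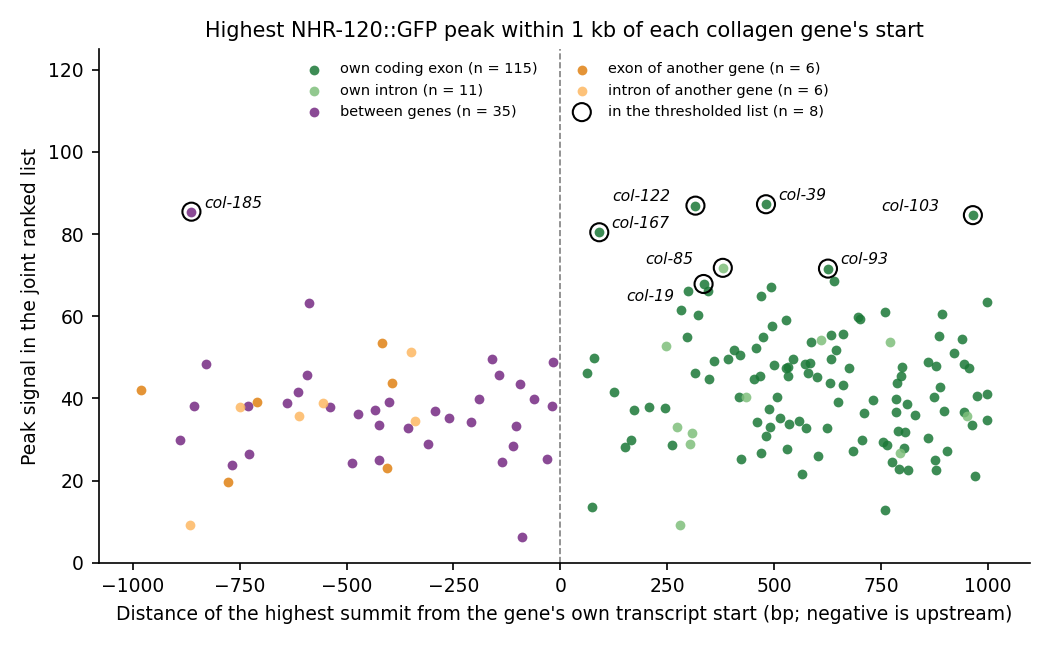
Each point is 1 of 173 collagen genes, placed by the distance in bp of its highest summit from the gene's own transcript start (x axis) and by the peak signal in the joint ranked list (y axis, authors' scale); colours give the place of the summit and circles mark the 8 genes in the thresholded list. Most points, 115 of 173, are summits in the gene's own coding exon, and 6 of the 8 circled ones are of that kind.

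All 8 of these genes had a ranked peak of both replicates at the site, and which replicate was the higher varied from gene to gene. col-39 (WBGene00000616) had a signal of 87.3 in the joint list at 481 bp past its start, with 44.3 in replicate 1 and 39.5 in replicate 2. col-122 (WBGene00000696) had 86.9 at 316 bp, with 32.01 in replicate 1 and 54.0 in replicate 2. col-103 (WBGene00000677) had 84.6 at 965 bp, with 51.3 in replicate 1 and 26.5 in replicate 2. So replicate 1 was the higher at col-103 and replicate 2 at col-122. The col-103 site ranked 172 of 60719 peaks in replicate 1 and 7946 of 58785 in replicate 2. The col-39 site ranked 328 and 816 in the same lists, and these ranks were closer to each other. The signal scale is the authors' own and is not stated, so values of the replicates are set side by side and not averaged.

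col-19 (WBGene00000608), an adult-stage collagen that serves as a marker of the larva-to-adult switch in the hypodermis, had the lowest signal of the 8. It reached 67.9 in the joint list at 335 bp past its start, with 31.4 in replicate 1 and 36.0 in replicate 2. col-93 (WBGene00000668) had 71.6 at 626 bp, with 39.2 in replicate 1 and 29.1 in replicate 2, in a peak at chrIII:10984851-10985114. col-167 (WBGene00000740) had 80.5 at 91 bp, with 41.4 in replicate 1 and 38.8 in replicate 2, in a peak at chrX:6323447-6323710 that also spans the start. All 3 summits lay in the genes' own coding exons. The annotation places 4 of the coding-exon summits inside a second gene as well: dph-2 at col-39, lron-14 at col-122, dhc-4 at col-93 and ZK1193.2 at col-19.

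The highest peaks of 2 of the 8 genes, col-85 and col-185, lay outside coding sequence, next to a tRNA gene each. The col-85 peak (WBGene00000660, chrII:12494583-12494846) lay 380 bp past the start in an intron, with its summit 26 bp before the start of the tRNA gene T21B4.t1. Its signal was 71.8 in the joint list, 32.7 in replicate 1 and 35.7 in replicate 2. The col-185 peak (WBGene00000758, chrX:13511828-13512091) lay 863 bp upstream, between genes, 81 bp past the start of the tRNA gene H06A10.t1. Its signal was 85.5 in the joint list, 33.4 in replicate 1 and 53.5 in replicate 2. A second thresholded peak lay in the coding exon of col-185, 820 bp past its start, with a signal of 54.6 in the joint list, 28.1 in replicate 1 and 21.6 in replicate 2. Whether these intronic and upstream signals belong to the collagen gene or to the tRNA gene was not tested. Without peaks near short RNA genes, 7 of the 180 genes had a thresholded summit, and col-85 was the one lost. That is 3.89%, against 1.36% of all 19973 coding genes.

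**Figure D2:**
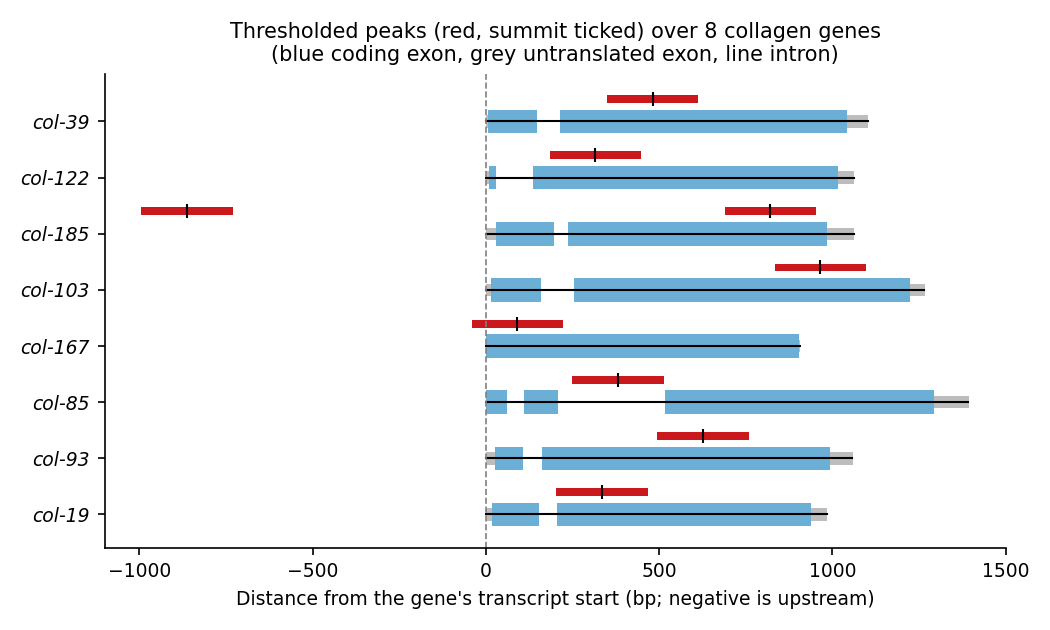
Models of the 8 genes are drawn by distance in bp from the transcript start (x axis), with coding exons in blue, untranslated exon in grey, introns as a line and thresholded peaks as red bars with a tick at the summit. The red bars of col-39, col-122, col-103, col-167, col-93 and col-19 lie over coding exon, that of col-85 over an intron, and col-185 has 1 bar upstream and 1 over coding exon.

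The 15 genes next in signal continued the same picture without passing the threshold in this list. Their joint signals ran from 68.6 for col-95 to 57.6 for col-111, with −log10 IDR values between 0.327 and 1.84, where 2 is the threshold. col-95 lay above col-19 in signal and had a −log10 IDR of 1.80, against 2.12 for col-19. In 14 of the 15 the summit was in the gene's own coding exon. The exception was col-110, at 63.1 and 589 bp upstream, where replicate 1 had 45.4 and replicate 2 had 19.1. sqt-3, a collagen needed for embryonic and larval body shape, was the strongest gene with a mutant-phenotype name, at 66.2 in the joint list, 29.0 in replicate 1 and 31.5 in replicate 2. The rest of the 15 were col-187, col-64, col-98, col-149, col-65, col-108, col-102, col-135, col-156, col-91 and col-145. At the col-65 site replicate 1 had no ranked peak and replicate 2 had 43.0.

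**Figure D3:**
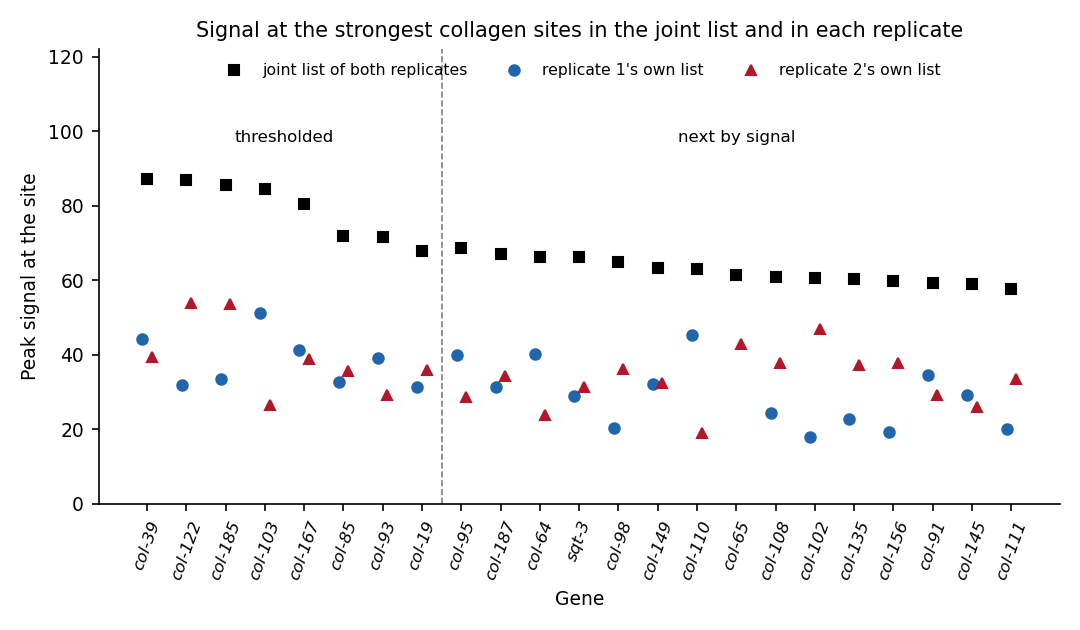
For the 8 thresholded genes and the 15 next by signal (x axis), squares give the peak signal in the joint list and circles and triangles the signal at the same site in the own ranked lists of replicates 1 and 2 (y axis, authors' scale). The joint signals run between 57.6 and 87.3, and the replicate values change order from gene to gene; a missing circle at col-65 means no ranked peak of replicate 1 at the site.

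Across all 173 genes the highest signal had a median of 39.8 and ranged from 6.26 at bli-4 to 87.3 at col-39, against a median of 34.4 for all coding genes. Signals of at least 50 were found at 23.1% of the collagen genes and 13.2% of all coding genes, and signals of at least 60 at 11.0% and 4.64%. The joint ranked list is permissive: its 115573 peaks cover 29.9% of the genome, so ranked peaks are described here and not counted as sites. Both replicates had a ranked peak at the joint site for 93 of the 173 genes (53.8%, against 38.7% of coding genes), and neither had one for 17 (9.83%, against 15.8%). The site was the highest within 1 kb in both replicates for 59 genes (34.1%, against 23.1%). Over the 93 genes with a peak in both replicates, the Spearman correlation of the replicates' site signals was 0.202, and over 6891 coding genes it was 0.215. These correlations run across genes of the same libraries and are given as descriptions.

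The highest summit of a collagen gene lay mostly in its own coding sequence. It was in the gene's own coding exon in 115 genes (66.5%, against 32.8% of coding genes) and between genes in 35 (20.2%, against 28.5%). It lay in the gene's own intron in 11 (6.36%, against 19.1%), in an exon of another gene in 6 and in an intron of another gene in 6. Upstream of the gene's own start it lay in 47 genes (27.2%, against 44.4%), but with a window of 500 bp the upstream shares were 42.3% and 43.0%. The median position was 473 bp past the start, against 82 bp for coding genes. Collagen genes are compact, with a median length of 1231 bp against 2044.5 bp, and exons make up 49.2% of the bases within 1 kb of their starts, against 37.2%. Of all 538 ranked summits in these windows, not the highest alone, 59.7% lay in an exon, against 44.4% of the 55981 at coding genes. With a window of 500 bp, the share of highest summits in any exon was 53.8%, against 48.3% for coding genes, where the 1 kb window gave 69.9% and 48.0%. How much of the exon position comes with gene structure was not tested.

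At the edge of the window, the summits of dpy-17 at 999 bp, col-149 at 997 bp and col-103 at 965 bp were just inside. Thresholded summits at col-181, 1062 bp from its start, and at col-110, 1128 bp from its start, were just outside. Between 1 and 2 kb the strongest thresholded peaks were those of col-181, with a signal of 127 at 11 bp past the start of the tRNA gene W03G11.t1, and of col-94, with 117 at 20 bp past the start of the snRNA gene R07E5.16. The peak in col-39 also lay within 2 kb of its neighbours col-79 and col-80. The peak at col-138, with 75.2, lay in an exon of C52D10.3. At none of these 5 genes did the peak lie in an exon or intron of the gene itself. Of the other 3 genes with a thresholded summit between 1 and 2 kb, the weaker peak of col-110, with 34.6, lay in its own coding exon, that of bli-3 lay between genes, and that of col-92 was the col-93 peak.

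Base composition moved with signal in the collagen genes and in all coding genes, a set that includes the collagen genes. Within 100 bp of the highest summit, the median share of G and C was 54.7% at the collagen genes and 40.3% at all coding genes. Where G and C were under 40%, the median signal was 32.9 at 32 collagen genes and 30.8 at 8881 coding genes. At 60% and over it was 47.9 at 48 collagen genes and 48.3 at 179 coding genes. In the classes between, it was 37.2 and 37.1 at 40 to under 50%, and 45.4 and 44.3 at 50 to under 60%. Within each of the 4 classes the medians of both sets were close. A thresholded summit was found at 3 of the collagen genes (6.25%) and 17 of the coding genes (9.50%) in the class of 60% and over. In the class of 50 to under 60% it was found at 4 of 57 collagen genes (7.02%) and 102 of 1591 coding genes (6.41%). Within these classes the collagen genes' share of thresholded peaks was near or below that of coding genes. The part of base composition in the peak signal itself was not tested.

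**Figure D4:**
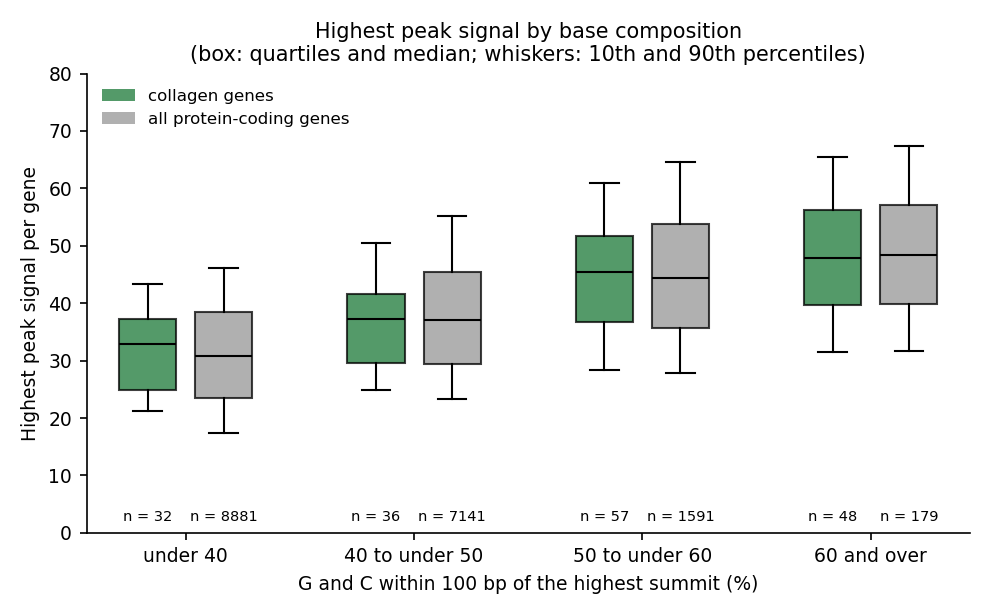
Boxes give the quartiles and median, and whiskers the 10th and 90th percentiles, of the highest peak signal per gene (y axis, authors' scale) in 4 classes of G and C content within 100 bp of the summit (x axis), for collagen genes (green, left) and all protein-coding genes (grey, right). Medians run from 32.9 to 47.9 in collagen genes and from 30.8 to 48.3 in all coding genes, and the boxes overlap in every class. The grey boxes include the collagen genes.

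Glycine-led triplets of codons, the coding mark of the family, lay under many of the summits. A run of at least 5 glycine-led triplets of codons was found in 175 of the 180 genes. Of the 115 summits in the genes' own coding exons, 65 (56.5%) lay inside such a run, while the runs make up 44.5% of the coding bases of the same genes. That share counts whole coding sequences, also beyond the 1 kb window. It includes the 7443 coding bases of rol-3, which is not a collagen and has 0% in runs, so it is lower than for collagens alone. Words of 6 bases were counted on both strands within 100 bp of the highest summit. GGACCA, a glycine and a proline codon, was found at 54.3% of the collagen genes, as the capitals in the col-39 and col-103 lines show, and at 6.07% of all coding genes. GGTCCA, another such pair, was found at 46.2% and 5.54%, and both counts can come from 1 site, since TGGACCA holds GGACCA and the reverse complement of GGTCCA. These words were not counted in collagen coding sequence away from the summits, so their shares do not set the summits apart from the rest of the genes. The word AGGTCA, a half-site recognised by many nuclear receptors, was found at 9.83% (17 genes), against 5.69%, and within 50 bp at 2.31%, against 2.78%. TGATAA, a word bound by GATA factors, was found at 6.36% (11 genes), against 2669 of the 17792 coding genes, and GAGAGA at 17.3%, against 12.2%. A word match describes the sequence and is not evidence of a bound site.

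The named collagens of the cuticle's structures were not among the 8. The 6 furrow collagens, which line the circumferential furrows of the cuticle, had a median signal of 44.3. dpy-3 was the highest of them at 55.0, 473 bp past its start in its coding exon, with 35.0 in replicate 1 and 36.2 in replicate 2. It was followed by dpy-8 at 46.1, dpy-7 at 45.4 and dpy-9 at 43.2, and the lowest was 34.5. dpy-3 alone of the 6 passed in the conservative list. The 3 strut collagens, which join the layers of the adult cuticle, were at 51.4 for bli-1, 48.7 for bli-6 and 47.6 for bli-2. The 10 other body-shape collagens had a median of 43.5 and ranged from 22.6 to 66.2, led by sqt-3, then dpy-4 at 49.6, rol-6 at 47.8 and sqt-1 at 46.2. Of these 19 genes, 14 had the highest summit in their own coding exon.

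The 5 genes of the set that are not cuticle collagens had the lowest median of the role groups. bli-3 was at 34.4, bli-5 at 26.8, rol-3 at 21.1, col-99, a transmembrane collagen, at 13.5, and bli-4 at 6.26. Their median was 21.1, against 34.4 for all coding genes. Without these 5, the median of the remaining genes was 40.3. Among collagens tied to a stage, the adult collagen col-7 was at 21.7 and the dauer collagen col-2 at 25.9, both far under col-19. The col-7 peak held 87.2% repeated words, a measure described next.

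Repeated sequence was common under the collagen peaks. In 30 of the 173 genes (17.3%, against 8.63% of coding genes), at least 20% of the peak's 30-base words were found more than once in the genome. In 20 of these 30, the gene that shared most words was another collagen gene of the set. In 3, col-86, col-117 and col-159, it was the gene to which the peak was assigned, but the col-117 peak lies in an intron of col-3. Of the thresholded genes, col-93 had 59.1% of such words, col-167 had 48.1%, col-85 had 23.8% and col-185 had 22.6%. Without peaks in repeated sequence 4 genes kept a thresholded summit, col-39, col-122, col-103 and col-19. That is 2.22% of all 180, against 1.37% of all 19973 coding genes, where all peaks gave 4.44% and 1.72%. The 120 bases below are the part of the col-93 peak at chrIII:10984925-10985044 and its matches in col-92 at chrIII:10982512-10982631 and col-94 at chrIII:10987179-10987298, on the reverse strand. Bases that differ from col-93 are in capitals.
col-93: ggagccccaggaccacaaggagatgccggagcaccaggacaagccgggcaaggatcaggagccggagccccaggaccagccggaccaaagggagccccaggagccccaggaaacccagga
col-92: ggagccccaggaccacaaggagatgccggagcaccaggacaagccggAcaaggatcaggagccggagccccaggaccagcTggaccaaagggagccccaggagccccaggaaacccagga
col-94: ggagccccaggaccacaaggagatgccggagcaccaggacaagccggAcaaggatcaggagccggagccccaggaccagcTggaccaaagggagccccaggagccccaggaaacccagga
Of 120 bases, 2 differ from col-93 in each copy, at the same positions. The next lines show the same for col-167 at chrX:6323518-6323637 and its copies in col-166 at chrX:6280046-6280165 and col-168 at chrX:6326418-6326537, on the forward strand, with 5 and 8 differing bases in capitals.
col-167: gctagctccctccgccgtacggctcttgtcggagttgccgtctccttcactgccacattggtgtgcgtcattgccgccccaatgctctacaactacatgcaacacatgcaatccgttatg
col-166: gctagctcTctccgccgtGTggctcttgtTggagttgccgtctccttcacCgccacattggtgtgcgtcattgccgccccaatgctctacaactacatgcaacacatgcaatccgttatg
col-168: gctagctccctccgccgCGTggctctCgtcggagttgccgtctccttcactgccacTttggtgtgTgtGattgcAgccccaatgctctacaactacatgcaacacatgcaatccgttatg
A read that covers none of the differing bases fits more than 1 of these genes equally well. How the authors treated such reads is not stated in the labels or the file descriptions.

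The copies did not all carry equal signals. col-92 was at 22.9, with 87.2% repeated words, 14.5 in replicate 1 and no ranked peak of replicate 2 at the site, while its neighbour col-93 was at 71.6. Their summits lay at coding bases 654 and 545, so these values are not from matching positions. Among pairs whose peaks shared most words with each other, col-146 and col-147 were similar, at 33.0 and 31.8. The pair of col-13 and col-12 was at 40.3 and 24.9, and that of col-178 and col-179 at 48.5 and 32.8. The most repeated peaks were mostly weak: 9 genes had at least 80% repeated words, with a median signal of 22.9 and a range of 9.26 to 53.8. col-154 had 100% repeated words and a signal of 44.7, with 26.2 in replicate 1 and 15.01 in replicate 2. col-7 and col-62, neighbours that share most words with each other, were at 21.7 and 12.8. col-117 and col-3, neighbours whose starts share 1 peak, were both at 9.26, and neither replicate had a ranked peak there. Genes with at least 50% repeated words in the peak had a median signal of 32.8 (17 genes), against 39.8 for the 99 genes with none. The classes between were higher, at 45.0 for the 44 genes above 0 and under 20%, and 40.3 for the 13 genes at 20 to under 50%, so the signal did not fall steadily with repeats. For all coding genes the medians were 32.5 at 50% and over, 37.2 at 20 to under 50%, 35.0 above 0 and under 20%, and 34.3 with none. Among 7 genes with no ranked summit within 1 kb, col-126 had 98.97% repeated words in the gene body and col-160 had 41.98%, while col-56, col-60 and col-152 had 0%, col-75 had 2.85% and col-151 had 9.07%.

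**Figure D5:**
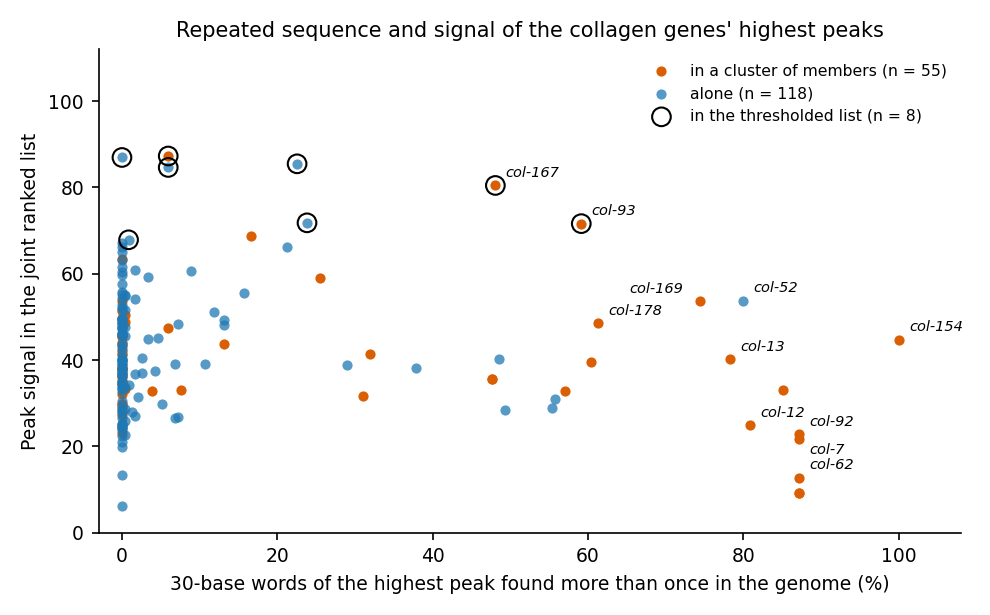
Each point is 1 of 173 collagen genes, placed by the percentage of 30-base words of its highest peak found more than once in the genome (x axis) and the peak signal in the joint ranked list (y axis, authors' scale); orange points are genes in a cluster with other members, blue points are genes alone, and circles mark the 8 thresholded genes. The 9 points at 80% and over lie between 9.26 and 53.8, under all 8 circled points.

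Genes within 10 kb of the next member formed 24 clusters with 57 members, of which 18 were pairs, 4 were trios, 1 had 4 genes and 1 had 5. The 55 clustered genes with a ranked summit had a median signal of 38.1, against 40.3 for the 118 genes alone. Thresholded peaks were found at 3 of the 55 (5.45%) and 5 of the 118 (4.24%), 2 similar shares, against 1.93% of coding genes. Repeated sequence lay under 36.4% and 8.47% of the peaks. The cluster of 5 on chromosome X, col-167 to col-171, ranged from 29.8 to 80.5 with col-167 alone thresholded. The cluster of col-79, col-39, col-80 and bli-1 on chromosome II ranged from 29.9 to 87.3, again with 1 gene called, col-39. The trio of col-92, col-93 and col-94 on chromosome III ranged from 22.9 to 71.6. In each of these 3 clusters, neighbours of the thresholded gene stayed below the threshold within 1 kb of their own starts. Only 4 genes shared their highest peak with another member, col-46 with col-47 and col-117 with col-3.

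Other genes of cuticle formation, together with the basement membrane collagens and listed by their roles, had 1 of 34 genes called. Of the 33 with a ranked summit this is 3.03%, near the 1.93% of coding genes. The gene was dpy-11, a thioredoxin-like protein that modifies cuticle collagens, with a signal of 73.9 at 556 bp upstream, in an exon of another gene. The 8 collagen-processing genes had a median of 38.9, the 9 hypodermal and moulting transcription factors 41.6, and the 14 cuticle proteins that are not collagens 31.3. Of the basement membrane collagens, emb-9 was at 35.0 and let-2 at 31.1. The median over all 33 of these genes with a ranked summit was 35.9, lower than the collagen genes' 39.8 and near the 34.4 of all coding genes.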

How the data were processed

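Peak lists from chromatin immunoprecipitation of NHR-120::GFP in 2 replicates were analysed as the authors deposited them. The deposited lists give a signal per peak, in unknown units, with a −log10 q value and, in the ranked lists, a −log10 IDR. No label or file header names the aligner, the peak caller or the role of a control (not given in the sources used here). Depth is unknown, since the lists give no read counts, so no interval was computed. Which lists were compared for the IDR of the main list is not stated. That list held 610 peaks, the conservative list 555, and those of replicates 1 and 2 alone 89 and 96.

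The build is ce11, per the labels, and all ranked peaks lay within the chromosome lengths of the RefSeq genome. Each gene was given the peak of the joint ranked list with the highest signal and its summit within 1 kb of a transcript start, and the same was done for every protein-coding gene. Genes were named by rule: all with a thresholded summit, the next 15 by signal, leading members of role lists, the 5 strongest at 1 to 2 kb and the 6 with most repeated words. Of the 4 stage-linked collagens listed, 3 were among the genes chosen. Genes, lists and rules were chosen with earlier results of these data known. Coordinates are 1-based. Scripts used Python 3.11.15, numpy 2.4.6 and pandas 2.3.3, and assignment, placement and repeat counting were tested on simulated data.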

Additional observations from a re-analysis of the deposited data

How the results depend on the processing

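Of 56 alternative settings of the values above, 30 were labelled the same and 26 moved. Counts were labelled the same within a fixed ratio of the main value. Shares and medians were labelled the same within the standard deviation of the replicates' values. So 20 genes with repeated 50-base words were labelled the same as 30, and 71.0% of summits in an exon was labelled moved from 69.9%. With a window of 500 bp, 5 genes had a thresholded summit (2.78% of the set, against 1.02% of coding genes), the median signal was 30.6 (29.2 for coding genes), 53.8% of highest summits lay in an exon and 42.3% upstream (43.0% for coding genes), so the difference in the upstream share was not seen at that window. With 2 kb these were 16 genes (8.89%, against 2.96%), 46.0 and 68.6%. Without peaks in repeated sequence they were 4 genes (2.22%, against 1.37%), 66.9% in an exon and 36.1% upstream (43.7% for coding genes). The upper 50% of thresholded peaks by signal left 5 genes (2.78%, against 0.861%), and the other joint ranked list put 71.0% of summits in an exon. With replicate 1 left out, 0 of the 180 genes had a thresholded summit, against 0.240% of all 19973 coding genes. With replicate 2 left out it was 1 gene (0.556%, against 0.225%). The lists used there hold 96 and 89 peaks, against 610 in the main list. In these 2 settings the median signal was 21.6 to 24.8 and 68.4 to 69.9% of summits lay in an exon. Repeated peaks were found at 18 to 24 genes, and 0 to 4 shared a peak. Counting any repeated word gave 74 genes and requiring 50% of words gave 17. Within 50 bp of the summit, AGGTCA was found at 2.31% (2.78% for coding genes) and TGATAA at 3.47% (7.44%). GGACCA was found at 41.0% (3.24%), GGTCCA at 24.3% (2.91%) and GAGAGA at 8.67% (6.29%). No paired analysis was possible because there is 1 group and no contrast. The signal scale and depth are not known, so strength beyond the authors' ranks is not measured, and repeats limit where reads can be placed.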
